A study of Gallus gallus with 6 samples.

Results

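Chicken macrophages treated with lipopolysaccharide (LPS) for 1 h were compared with unstimulated macrophages on 1 spotted cDNA array. All genes with a name and a ratio on that array were taken, which gave 2251 of the 2253 genes named in the series. The series followed macrophages derived from peripheral blood of Gallus gallus after stimulation with whole XL10 E. coli or with LPS from S. typh, on 6 arrays in all. The RNA of the treated cells came from macrophages held with LPS for 1 h, and the RNA they were set against came from macrophages given no stimulus. Both were total RNA. The strain, age and number of birds, and any pooling of birds, are not given in the sources used.

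LPS is the glycolipid of the outer membrane of Gram-negative bacteria. In vertebrate macrophages it is sensed by toll-like receptor 4 with its co-receptor MD-2, and adaptor proteins and kinases then release the transcription factor NF-kB from its cytoplasmic inhibitors. The first genes switched on are known from mammals and birds to include chemokines, the cytokines interleukin 1 beta and interleukin 6, and inhibitors that close the same pathway again.

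The array held 1 log ratio per spot, with 14361 of 14718 spots filled. Each cDNA clone was spotted 3 times, and the median SD over a clone's spots was 0.19 log2 units. With 1 array there was no replicate and no test between LPS and unstimulated cells, so every ± below gives the SD among a gene's spots and holds technical spread only. Values are log2 ratios centred on the array median, which was 0.29 before centring. The base of the logarithm was assumed to be 2. Which RNA was the numerator, and which dye each carried, is not given in the sources used. The sample's title and its channel order both put the unstimulated cells first, so a ratio of unstimulated over LPS is likely, and a negative ratio would then mean a higher level after LPS. Signs are given as deposited, and under the other reading every sign below turns round. The 3 copies of the spots lay at slightly different heights, with a median of -0.12 for copy 1 and 0.12 for copy 3.

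Most genes stood close to the array median, and the larger ratios lay on the negative side. Within 0.5 log2 units of the median were 1626 genes, or 72.2%. At least 2-fold negative were 166 genes (7.37%), and at least 2-fold positive 85 genes (3.78%). At least 4-fold negative were 61 genes (2.71%) against 9 (0.4%) on the positive side, and at least 8-fold 27 (1.2%) against 3 (0.133%). With no centring the 2-fold split was 123 negative and 161 positive genes. A stricter reading asked for 3 or more spots that all shared 1 sign, which left 131 negative genes (5.82%) and 57 positive ones (2.53%). With every one of 3 or more spots past 2-fold there were 93 negative genes (4.13%) and 18 positive ones (0.8%). The shares of all genes in this paragraph are the background for the counts of each list below.

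Both sides differed in how bright their genes were. Brightness was read from the LPS 2 h array of the series, itself made from LPS-treated cells, and genes were put in 4 equal groups by it. From the dimmest to the brightest 25%, 30, 14, 34 and 88 genes were at least 2-fold negative. Over the same groups 67, 11, 4 and 3 genes were at least 2-fold positive, and the median SD over spots was 0.44, 0.25, 0.19 and 0.16. The median ratio moved with brightness as well, at 0.27, 0.13, 0.01 and -0.15 over the 4 groups. The part of brightness in these counts was not tested.

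**Figure D1:**
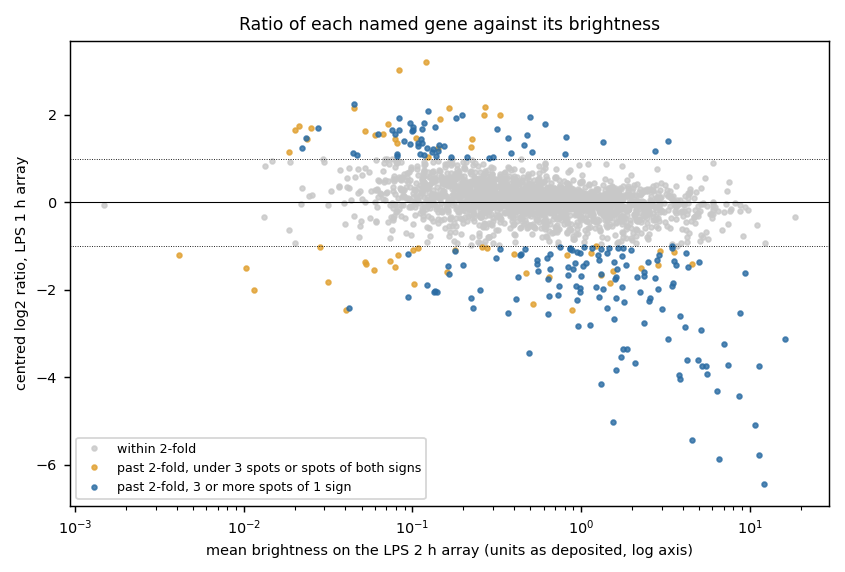
Centred log2 ratio of named genes on the LPS 1 h array (vertical axis) against their mean brightness on the LPS 2 h array (horizontal log axis, units as deposited). Of the 2251 named genes, those without a positive brightness cannot be placed on a log axis and are left out. Blue points are past 2-fold with 3 or more spots of 1 sign, orange points are past 2-fold on fewer spots or on spots of both signs, and grey points are within 2-fold; the points below -3 lie mostly among bright genes, and those above 1 mostly among dim ones, where a negative ratio means a higher level after LPS if unstimulated RNA is the numerator.

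Receptors of LPS and other microbial products lay near the array median about as often as all genes did. Of 11 such genes 8 lay within 0.5 log2 units of the array median, and 1 was past 2-fold on each side. Of all genes 72.2% lay that near, 7.37% were negative and 3.78% positive. LY96, which encodes MD-2, stood at 0.12 ± 0.22 and MYD88, the adaptor shared by most toll-like receptors, at 0.17 ± 0.11. TLR15, a toll-like receptor found in birds and reptiles, was the negative member. Its 2 clones were read at -2.55 and -3.90 for one (2 spots) and at -3.99, -4.55 and -3.88 for the other, a mean of -3.68 ± 0.74 over 5 spots. All of these spots lay beyond 4-fold. TLR5, the flagellin receptor, was the positive member, dim and uneven at 1.67 ± 1.15.

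Of 18 kinases and adaptors between the receptors and NF-kB, 6 were at least 2-fold negative and none was positive. Of all genes 7.37% were negative and 3.78% positive. BIRC2, a ubiquitin ligase that joins TNF receptor complexes, was on 4 clones whose means ran only from -2.49 to -2.64, with a gene mean of -2.54 ± 0.18 over 12 spots. TRAF7, a ubiquitin ligase of the TRAF family, had spots of -2.47, -2.45 and -2.12 on one clone and -2.03, -1.80 and -2.23 on the other. The 3 clones of IRAK2, a kinase of the toll-like receptor complex, averaged -2.35, -1.92 and -0.90, so only 2 of them were past 2-fold. CFLAR, a blocker of caspase 8, had spots of -2.34, -0.87 and -1.76. MAP3K8, a kinase upstream of ERK, had -1.56, -0.71 and -0.85, so its mean of -1.04 was just past 2-fold with only 1 spot there. TRAF5 was counted on 2 spots of opposite sign. Central kinases stood near the array median, with CHUK at 0.19 ± 0.29, IKBKB at -0.22 ± 0.14 and MAP3K7 at 0.08 ± 0.24.

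Among 7 subunits and inhibitors of NF-kB, 5 were at least 2-fold negative, against 7.37% of all genes. The list median was -1.91 against 0.05 for all 2251 genes. All 5 negative genes act on the pathway as inhibitors or modifiers. NFKBIZ, a nuclear member of the inhibitor family, had spots of -2.07, -4.62 and -5.56 on one clone and -3.90, -3.86 and -3.68 on the other. The wide spots and the narrow ones gave clone means of -4.08 and -3.81. TNIP3, a partner of the deubiquitinase A20, was read at -1.70, -3.58 and -4.82. The 2 clones of TNFAIP3, which encodes A20 itself, averaged -2.19 and -3.02. NFKBIA, the cytoplasmic inhibitor IkB alpha, had narrow spots of -2.12, -1.89 and -1.74, and NFKBIE, a related inhibitor, wider ones of -2.0, -0.69 and -1.44.

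The suppressors of cytokine signalling, which block JAK kinases, lay on the same side. SOCS3 was read at -1.82, -4.72 and -3.55, and SOCS1 averaged -1.59 and -2.24 on its 2 clones. They were the 2 members past 2-fold of the 10 measured IRF, STAT and SOCS genes, against 7.37% negative and 3.78% positive among all genes. Of these 10 genes 5 lay within 0.5 log2 units of the array median, against 72.2% of all genes. The list median was -0.32.

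**Figure D2:**
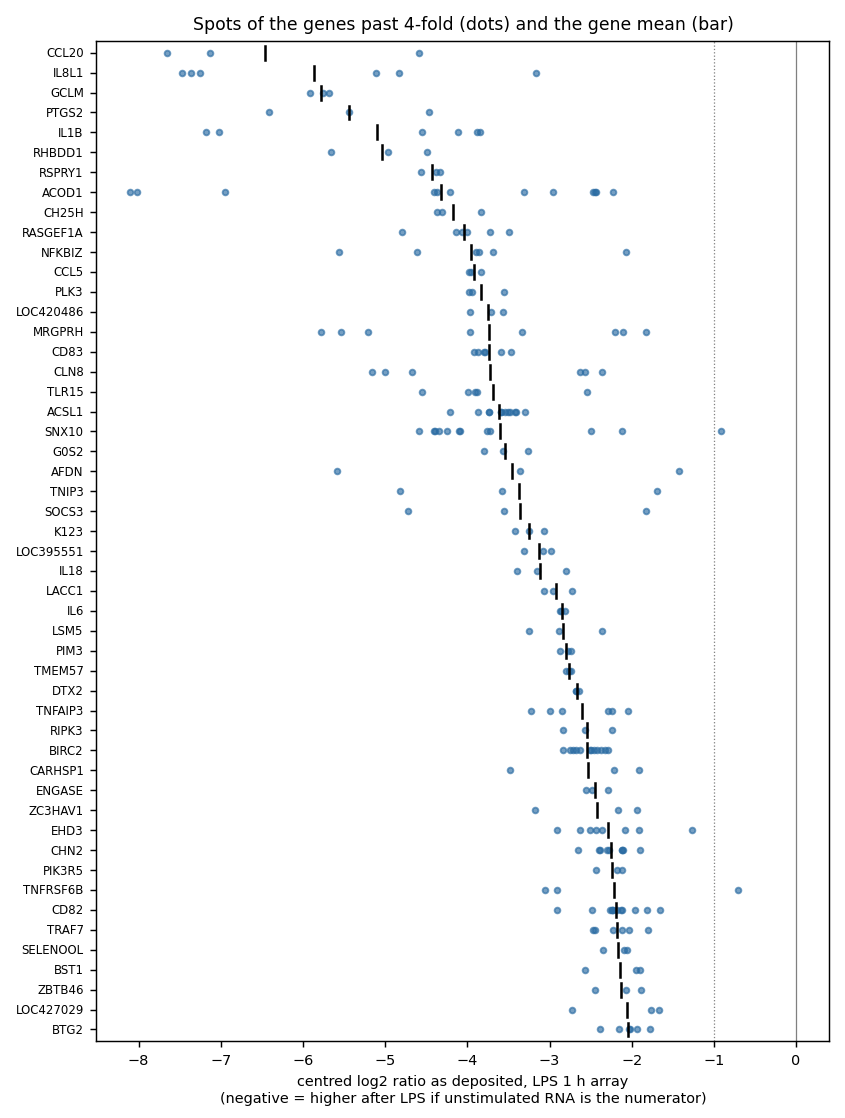
Spots (dots) and mean (bar) of the 50 genes that were at least 4-fold negative on 3 or more spots of 1 sign and above the dimmest 25%, as centred log2 ratios on the LPS 1 h array. CCL20, IL8L1 and GCLM have the lowest means; GCLM, RSPRY1 and CCL5 have narrow spots and ACOD1 and MRGPRH wide ones, and a negative value means higher after LPS if unstimulated RNA is the numerator.

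Secreted signals were the list with the lowest median. Of 17 cytokines and chemokines 12 passed 2-fold on the negative side with 3 or more spots of 1 sign, 1 was positive, and the median was -2.05. By the same rule 5.82% of all genes were negative and 2.53% positive. CCL20, a chemokine for cells that carry CCR6, had spots of -4.59, -7.13 and -7.65, and its mean of -6.46 ± 1.64 equals an 87.8-fold difference. IL8L1, an avian interleukin 8 that attracts heterophils, had spots of -5.11, -3.16 and -4.83 on one clone, and -7.36, -7.25 and -7.47 on the other. The 2 clones of the same gene thus gave -4.37 and -7.36, a gap wider than the spots of either.

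IL1B, the interleukin 1 beta gene, also had clones apart, with -4.11, -3.85 and -3.89 on one clone and -7.02, -4.55 and -7.18 on the other, where the spots of the lower clone spread as widely as the clones. CCL5, which draws T cells and monocytes, was tight at -3.98, -3.96 and -3.83. IL6, a cytokine of the acute phase, was tighter still at -2.81, -2.86 and -2.87. All spots of these 3 genes lay beyond 4-fold. IL18, an inducer of interferon gamma, had spots of -3.15, -3.40 and -2.80.

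LOC395551, which the gene table lists under the synonyms CCL4 and MIP-1beta, had spots of -3.31, -3.08 and -2.98. Transcripts of related chemokines can bind the same cDNA clone, so its values and those of CCL4 are uncertain in that respect. INHBA, a subunit of activin A, had -2.38, -2.04 and -2.10 but was dim, in the lowest 25% by brightness. The remaining negative members were XCL1, CCL4, CCL1 and IL16, with means from -1.07 to -2.05. IL15, a growth factor of lymphocytes, was the positive member, with spots of 1.46, 0.88 and 1.03. XCL1 and IL15 were also in the lowest 25% by brightness.

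A smaller share of the receptors for such signals than of all genes lay near the array median. Of 24 cytokine and chemokine receptors 4 were at least 2-fold negative and 2 positive, and 13 lay within 0.5 log2 units of the median. Over all genes these shares were 7.37%, 3.78% and 72.2%. The negative ones included 2 decoy receptors. IL13RA2, which binds interleukin 13 without signalling in the usual way, averaged -1.62 and -1.58 on its 2 clones. IL1R2, a decoy for interleukin 1, averaged -1.15 and -1.60. IL2RA, the alpha chain of the interleukin 2 receptor, had spots of -1.40, -1.22 and -0.68, and IL21R was counted on 2 spots. A further decoy, TNFRSF6B, which captures ligands of the TNF family, was outside the list and was read at -2.91, -3.05 and -0.70.

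On the positive side were IFNAR1, a chain of the type I interferon receptor, and CSF1R, the receptor for macrophage colony-stimulating factor. IFNAR1 had 1.67, 1.47 and 1.62 on one clone and 1.47, 1.21 and 1.56 on the other. CSF1R averaged 0.79 and 1.55 on its 2 clones, all 6 spots being positive. The other measured chains of interferon receptors also had positive means, short of 2-fold. IFNAR2 stood at 0.68 ± 0.29, IFNGR1 at 0.65 ± 0.60 and IFNGR2 at 0.70 ± 0.67. The clones of IFNGR1 averaged 1.13 and 0.18, the higher one being the dimmer, and IFNGR2 had spots of both signs.

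Enzymes that make small mediators held some of the lowest ratios of the array. Of 7 prostaglandin and leukotriene enzymes 3 lay within 0.5 log2 units of the array median. Of 11 nitric oxide, itaconate and polyamine enzymes 7 did, against 72.2% of all genes. PTGS2, the inducible cyclooxygenase of prostaglandin synthesis, was read at -4.47, -6.41 and -5.45. It was the only negative member past 2-fold of the 7 prostaglandin and leukotriene enzymes, of which 2 were positive. Of all genes 7.37% were negative and 3.78% positive. The positive enzymes, ALOX5 and PLA2G15, were dim and had spots that spread with an SD of 1.36 and 2.73. ACOD1, which makes itaconate, was on 4 clones that averaged -7.69, -2.37, -4.33 and -2.91. All 12 spots were at least 4-fold negative, while the clones differed by far more than the spots within them.

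CH25H, which adds the hydroxyl group of 25-hydroxycholesterol, had spots of -4.31, -4.37 and -3.83. GPR183, the receptor of an oxysterol made from that product, had -2.30, -2.09 and -2.16 in the dimmest 25%. ACSL1, which activates long-chain fatty acids with coenzyme A, was on 4 clones with means of -3.50, -3.62, -3.50 and -3.84. CH25H and ACSL1 were the 2 members past 2-fold of 14 genes of cholesterol and fatty acid handling. Of all genes 7.37% were negative and 3.78% positive. G0S2, an inhibitor of triglyceride lipase known from mammals, was read at -3.80, -3.57 and -3.26.

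Of 21 genes of glutathione, redox and iron handling 3 were past 2-fold, all negative, against 7.37% negative among all genes. GCLM, the modifier subunit of glutamate-cysteine ligase, which starts the making of glutathione, had spots of -5.91, -5.75 and -5.69, a 55.1-fold difference. GCLC, the catalytic subunit of the same enzyme, stood at 0.37 ± 0.54, with spots of both signs. NCF4, a regulatory subunit of the phagocyte oxidase, had -1.23, -1.30 and -1.09, and TXNRD1, a thioredoxin reductase, -1.41, -1.04 and -0.75. Of the other oxidase genes CYBB stood at -0.03 ± 0.42 and NCF1C at -0.72 ± 0.21.

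**Figure D3:**
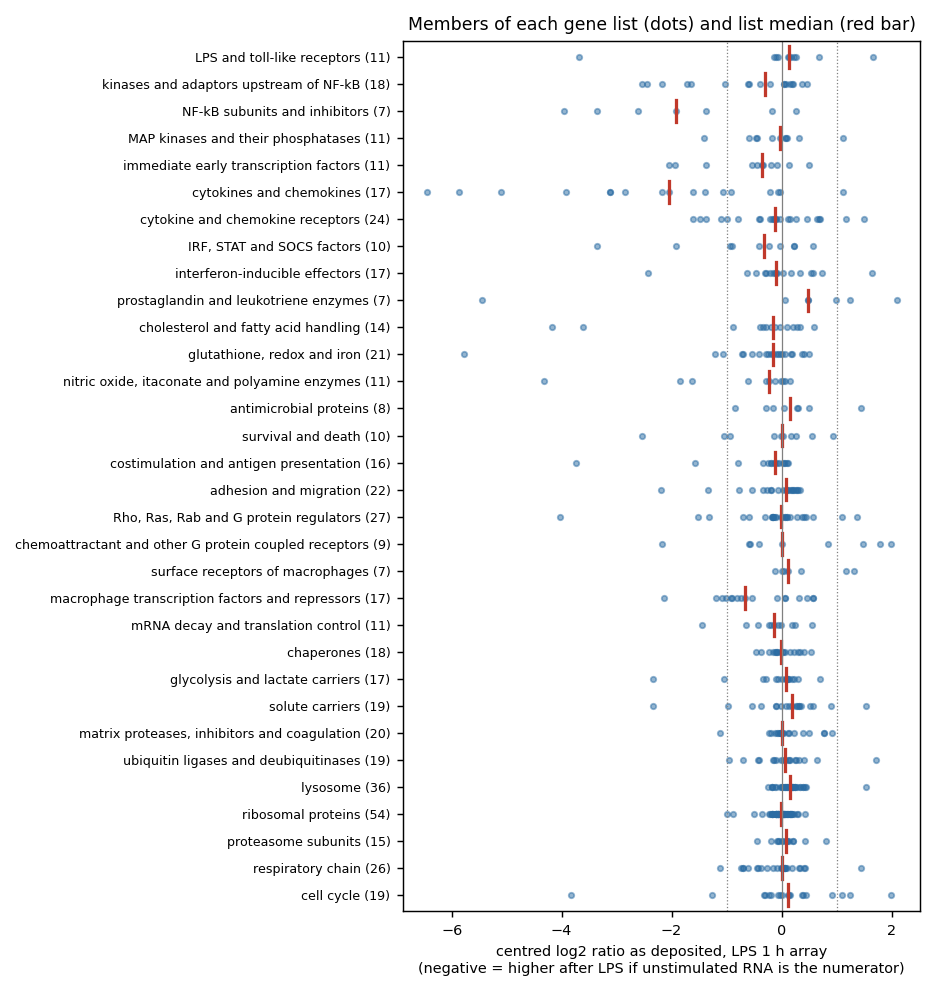
Each dot is a gene of 1 of the 32 gene lists, placed at its centred log2 ratio on the LPS 1 h array, with the list median as a red bar and the number of measured genes in brackets. The medians of cytokines and chemokines (-2.05), NF-kB subunits and inhibitors (-1.91) and macrophage transcription factors and repressors (-0.67) lie furthest below 0. A negative value means higher after LPS if unstimulated RNA is the numerator.

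Immediate early transcription factors, which are switched on without new protein synthesis, were mixed. Of 11 genes 3 were at least 2-fold negative, against 7.37% of all genes. BTG2, an antiproliferative cofactor, had -2.39, -2.16 and -2.03 on one clone and -2.02, -1.94 and -1.77 on the other. KLF2, a repressor of inflammatory genes in mammalian monocytes, had -2.47, -2.05 and -1.27. ATF4, a regulator of amino acid and stress genes, averaged -1.37 ± 0.13. FOS, often the first of such genes to be induced, stood at -0.08 ± 0.06, and the 8 spots of JUN had both signs.

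The list of macrophage transcription factors and repressors leaned to the negative side. Its members are not all particular to macrophages, and ZBTB46 and ID2 also serve as dendritic cell markers below. Of 17 genes 4 were at least 2-fold negative, against 7.37% of all genes, and none was positive. The list median was -0.67 (-0.38 with no centring). ZBTB46, a factor known from mammalian dendritic cells, had spots of -2.44, -1.89 and -2.07. ETS1 averaged -1.25 and -1.14 on its 2 clones. ID2, an inhibitor of basic helix-loop-helix factors, had spots of -1.19, -1.11 and -0.96, and BCL6, a zinc finger repressor, -1.29, -0.76 and -1.0, just past the threshold at a mean of -1.02. Below 2-fold, SPI1, the master factor PU.1 of myeloid cells, stood at -0.67 ± 0.22 over 9 spots and IRF8 at -0.90 ± 0.21.

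Cell surface genes past 2-fold included several with many clones. Of 22 adhesion and migration genes 2 were negative, none was positive and 18 lay within 0.5 log2 units of the median. Over all genes these shares were 7.37%, 3.78% and 72.2%. Of 16 costimulation and antigen presentation genes 2 were negative, none was positive and 13 lay that near, against the same shares. The lowest of these 16 was CD83, a marker of activated dendritic cells and macrophages. It averaged -3.86 and -3.62 on its 2 clones. CD82, a tetraspanin and the lowest of the adhesion and migration genes, was at -2.46, -1.81, -2.29 and -2.19 on 4 clones. CD44, the hyaluronan receptor, was at -1.01, -1.26, -1.66, -1.33 and -1.43 on 5. These clones all lay past 2-fold on the same side. CD274, the ligand of the checkpoint receptor PD-1, was less even, at -1.88, -2.30, -0.99 and -1.09, and 1 of its 12 spots was positive.

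Regulators of small G proteins and of G protein signalling had members past 2-fold on both sides, 3 negative and 2 positive of 27, shares not far from the 7.37% and 3.78% of all genes. RASGEF1A, an exchange factor for Ras proteins, averaged -4.19 and -3.88 on its clones. RABGEF1, an exchange factor of early endosomes, had -1.81, -1.33 and -1.44, and RGS1, which shortens chemokine receptor signals, averaged -1.27 and -1.37. RHOB, a GTPase of endosomes and stress fibres, was positive at 1.56, 1.17 and 1.38. Outside the list, CHN2, which switches off Rac, was on 3 clones at -2.10, -2.39 and -2.27. PIK3R5, a regulatory subunit of the phosphoinositide kinase that G protein coupled receptors engage, had -2.11, -2.44 and -2.18.

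Of 9 chemoattractant and other G protein coupled receptors, 1 was negative (GPR183, above) and 3 were positive, against 7.37% and 3.78% of all genes. CMKLR1, the receptor for chemerin, had 2.30, 1.61 and 2.07. P2RY6, a receptor for the nucleotide UDP, had 1.43, 2.03 and 1.93. GPR34, a receptor for lysophosphatidylserine, averaged 1.4 and 1.55 on its 2 clones. All 12 spots of these 3 genes were beyond 2-fold. CMKLR1 was in the dimmest 25% and the other 2 were not. The list did not hold all genes of this kind. MRGPRH, a receptor of the Mas-related family, was outside it and bright, with clones at -3.66, -2.04 and -5.51.

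Further positive genes with narrow spots had roles in phagocyte surfaces, endosomes and signalling. TREM2, a lipid receptor of macrophages, averaged 1.21 and 1.42 on its 2 clones. ITGB5, an integrin chain, averaged 1.24 and 1.04. SLC15A4, a transporter of endolysosomes, had 1.52, 1.58 and 1.53, and DUSP6, a phosphatase of ERK, 0.95, 1.16 and 1.25. No gene was at least 4-fold positive on 3 or more spots of 1 sign above the dimmest 25%, against 50 negative ones (2.22%). Brightness was read from LPS-treated cells, so this filter is not neutral between both sides. Its part in the contrast was not tested. Within the dimmest 25%, 2 genes were at least 4-fold positive on 3 or more spots of 1 sign (0.0888%), and both rested on 1 high spot. NRIP1, a nuclear receptor corepressor, had 4.95, 1.08 and 0.70, and PLA2G15, a lysosomal phospholipase, 5.21, 0.10 and 0.97.

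Lists of the cell cycle and of survival and death had medians near that of all genes (0.11 and 0.01). Past 2-fold were 2 negative and 3 positive of 19 cell cycle genes, and 2 negative and no positive of 10 survival and death genes. Over all genes these shares were 7.37% and 3.78%. Only 1 of the 3 positive cell cycle genes had 3 or more spots of 1 sign, against 2.53% of all genes. Single kinases and regulators past 2-fold were the following. PLK3, a stress-activated polo-like kinase, had spots of -3.94, -3.99 and -3.56. PIM3, a survival kinase, had -2.87, -2.78 and -2.74, and RIPK3, the kinase of necroptosis in mammals, -2.83, -2.57 and -2.24. CDKN1A, the cell cycle inhibitor p21, was read at -1.29, -1.44 and -1.06. PIK3AP1, an adaptor that links toll-like receptors to phosphoinositide kinase, had 3 clones at -1.5, -1.47 and -1.5, the most even of the genes with 3 clones named here.

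In a list of 19 ubiquitin ligases and deubiquitinases none was negative and 1 was positive past 2-fold, against 7.37% and 3.78% of all genes. The positive one, SIAH2, was in the dimmest 25%. That list did not hold all genes of this kind. BIRC2 (-2.54), TRAF7 (-2.18), TNFAIP3 (-2.61) and DTX2 (-2.67) were outside it and were named for being at least 4-fold negative. Of 11 genes of mRNA decay and translation control 1 was negative, with clones that disagreed, against 7.37% of all genes. Genes outside these lists were among those past 4-fold. ZC3HAV1, a zinc finger protein that destroys viral RNA, had -3.18, -2.17 and -1.93. DTX2, a ubiquitin ligase of the Deltex family, had -2.65, -2.67 and -2.68. RSPRY1, with RING and SPRY domains, had -4.57, -4.38 and -4.33, and RHBDD1, a rhomboid protease, -5.66, -4.96 and -4.49. Among genes of membrane traffic SNX10, a sorting nexin, was on 4 clones at -4.28, -4.41, -1.84 and -3.86, and CLN8, a carrier of lysosomal enzymes, on 2 clones at -2.52 and -4.94. LACC1, an enzyme of purine metabolism linked to macrophage function in mammals, had -3.06, -2.96 and -2.72. K123 and LOC420486, for which no role is given here, averaged -3.25 ± 0.18 and -3.75 ± 0.21.

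Lists of lysosome, ribosomal, proteasome and chaperone genes stayed close to the array median. Of 36 lysosome genes none was at least 2-fold negative, and LAMP5, the 1 positive gene, had 1 spot. Within 0.5 log2 units of the median lay 35 lysosome genes, against 72.2% of all genes. The same held for 51 of 54 ribosomal proteins, 14 of 15 proteasome subunits and 17 of 18 chaperones. Of these ribosomal, proteasome and chaperone genes 1 was past 2-fold, RPS3, whose clones disagreed. Over all genes 7.37% were at least 2-fold negative and 3.78% positive. In the respiratory chain list 20 of 26 genes lay within 0.5 log2 units of the median, and ratios ran from -1.12 to 1.45. Its lowest gene, COX6A1, had clones that disagreed, and its highest, COX11, had 1 spot.

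Several genes were spotted as more than 1 clone, which gave a check within the array. Of 568 genes with 2 or more clones, 51 had a mean at least 2-fold negative, and in 34 of these every clone was past 2-fold on that side. On the positive side 9 such genes had a mean past 2-fold, and in 4 every clone was. The 4 were GPR34, IFNAR1, ITGB5 and TREM2. These sets were picked on the mean of the same clones, which favours agreement. Among genes with any clone past 2-fold, 76 had a negative mean and 27 a positive one. Every clone was past 2-fold in 34 and 4 of them, and all clones shared 1 sign in 55 and 18.

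**Figure D4:**
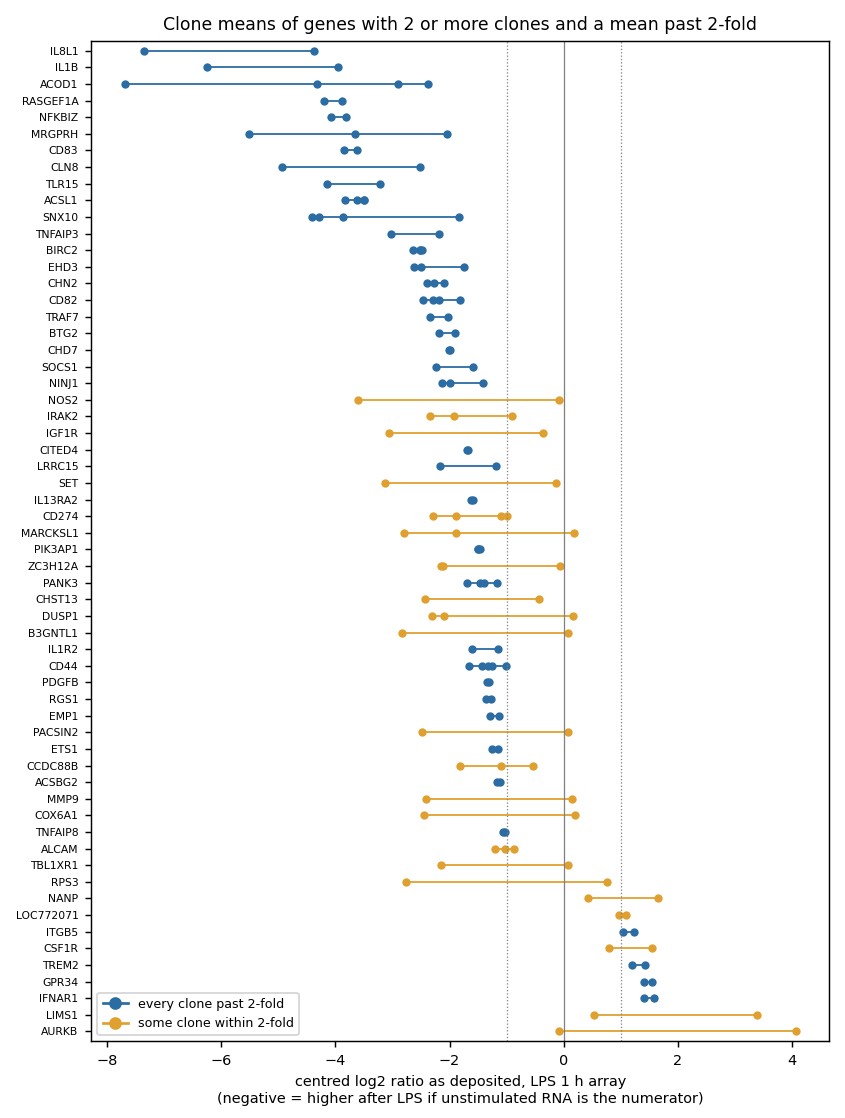
Clone means (dots, joined by a line per gene) of genes with 2 or more clones and a mean past 2-fold on the LPS 1 h array, in centred log2 units. Blue genes have every clone past 2-fold and orange genes have some clone within 2-fold; the means of ACSL1, BIRC2 and PIK3AP1 fall close together while those of NOS2, SET and RPS3 lie far apart, and a negative value means higher after LPS if unstimulated RNA is the numerator.

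In several genes whose clones disagreed, the spots within each clone lay close together. NOS2, the inducible nitric oxide synthase, had spots of -4.42, -3.27 and -3.13 on one clone and -0.22, -0.03 and 0.03 on the other. SET, a histone chaperone, had -3.40, -3.20 and -2.78 against -0.19, 0.03 and -0.23. DUSP1, a phosphatase of MAP kinases, averaged -2.10 and -2.30 on 2 clones and 0.16 on the third. In each of these genes the spots of the strong clone did not overlap those of the weak one.

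The same split appeared in ZC3H12A, which degrades cytokine mRNAs, with clones at -2.11, -0.06 and -2.15. MMP9, a gelatinase, had clones at 0.15 and -2.41, and COX6A1, a respiratory chain subunit, at -2.44 and 0.20. AP2M1, a clathrin adaptor subunit, had 4 clones between 0.28 and 0.51 and 1 at -5.91, with spots of -6.09, -5.95 and -5.69. Means of such genes describe neither clone, and which clone carries the named transcript was not tested.

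The E. coli 1 h array compared E. coli-treated with unstimulated macrophages, with E. coli in channel 1. It therefore has the stimulus in the other channel, and its title names the control first, against that channel order, so its direction is less settled. Both arrays carry the same clones and used RNA of unstimulated macrophages, with no label saying whether it was the same RNA, so the values are set side by side and differences between the arrays were not tested. Among the genes past 4-fold, CCL20 had -6.46 ± 1.64 on the LPS 1 h array and 6.0 ± 2.41 on the E. coli 1 h array. GCLM had -5.78 ± 0.12 and 4.03 ± 0.19 in the same order, PLK3 -3.83 ± 0.24 and 2.91 ± 0.50, and LSM5, which binds RNA, -2.83 ± 0.45 and 2.86 ± 0.27. Others were near the median on the E. coli 1 h array. CH25H had -4.17 ± 0.29 on the LPS 1 h array and -0.17 ± 0.11 there, IL18 -3.12 ± 0.30 and 0.20 ± 0.08, LACC1 -2.92 ± 0.18 and -0.32 ± 0.15, and CD82 -2.19 ± 0.32 and 0.09 ± 0.23. PTGS2 lay between, at -5.44 ± 0.97 and 0.79 ± 0.54.

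For genes with disagreeing clones the clone means can be read on both arrays. The strong clone of NOS2 had -3.61 on the LPS 1 h array and 4.05 on the E. coli 1 h array, and its weak clone -0.07 and -0.35. The strong clone of SET had -3.13 and 2.42, its weak one -0.13 and -0.54. The strong clone of AP2M1 had -5.91 and 4.06. In these 3 genes, picked after their values were seen, the same clone lay far from the median on both arrays. MMP9 differed, since its weak clone had 0.15 on the LPS 1 h array and 1.24 on the E. coli 1 h array, close to the 1.44 of its strong clone there. That weak clone was dim, at a brightness of 0.18 against 6.91 for the strong one. Its spots on the E. coli 1 h array were uneven, at 1.72, 0.37 and 1.65.

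**Figure D5:**
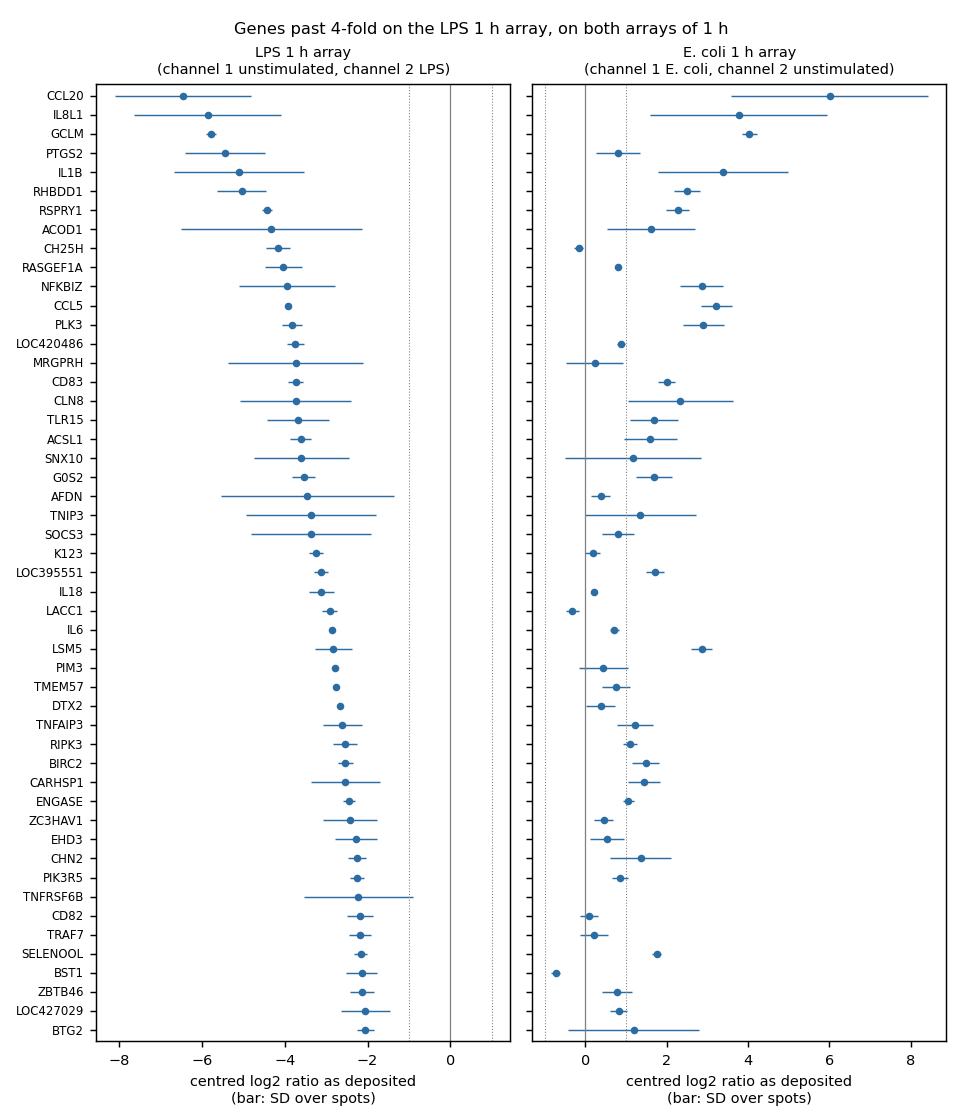
Centred log2 ratios of the 50 genes at least 4-fold negative on the LPS 1 h array (left) and of the same genes on the E. coli 1 h array (right), with bars for the SD over spots. CCL20, GCLM and CCL5 lie far from 0 on both arrays, and CH25H, IL18, K123 and CD82 lie far from 0 on the left and near it on the right; channel 1 held unstimulated RNA on the left and E. coli RNA on the right, and a negative value on the left means higher after LPS if channel 1 is the numerator.

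Markers of macrophages and of other blood cells were read beside the labelled cell type. The 15 macrophage markers had a brightness from 0.202 to 8.76 on the LPS 2 h array, in the units deposited, and since no background level is at hand the lower values do not show expression. None was at least 2-fold negative and 2 were positive, TREM2 and CSF1R, against 7.37% and 3.78% of all genes. The 5 T cell markers had a brightness from 0.134 to 5.40, and their ratios ran from -0.04 to 0.55. The upper values of both ranges belong to CD3D, a chain of the T cell receptor complex. The 4 erythroid markers ran from -0.49 to -0.16 and the 3 stromal ones from 0.09 to 0.30. The -0.16 belongs to ALAS1, matched through a synonym for ALAS2, which may not mark erythroid cells. The 2 thrombocyte markers had -0.53 and 0.14, and the 1 B cell entry, SH2D6, 0.99 ± 0.23. SH2D6 was in the dimmest 25% by brightness.

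Of 6 heterophil markers MMP9 was negative, with clones that disagreed, and CATH1, a cathelicidin, positive at 1.00, 2.18 and 1.15. Of all genes 7.37% were negative and 3.78% positive. CATH1 was in the dimmest 25% by brightness. Of 5 dendritic cell markers 3 were negative, CD83, ZBTB46 and ID2, all described above, against 7.37% of all genes. Fewer cells of a type and less RNA per cell cannot be told apart on such an array. The part of other cell types in the ratios was not tested.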

How the data were processed

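Ratios came from the table of processed values, 1 column per array. Per the labels, the array was hybridised with RNA of unstimulated cells (channel 1) and of LPS-treated cells (channel 2). The authors' deposited values were taken as log2 ratios. Log base, numerator, dyes, normalization and background correction are not given in the sources used. The deposited LPS 2 h column was taken as linear intensity and served as brightness only. A probe table of 2007 gave 1 gene to 9066 spots, several to 3 and none to 5649. Names were updated through RefSeq (GRCg7b, 2228 of 2255 identifiers), and 29 list members were matched through its synonyms (SH2D6 for BLNK, for example), which may be other genes than those meant.

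Ratios were centred on the array median, and spots were averaged per clone and clones per gene. A gene counted as past 2-fold at a log2 size of 1. The 32 gene lists, 8 marker lists and members were chosen with earlier results of these data known. Named genes were those past 4-fold on 3 or more spots of 1 sign above the dimmest 25%, up to 8 per list past 2-fold (or else 3 of largest size), and genes with 2 or more clones of which 1 was past 2-fold. From these the text gives a part, and NRIP1, XCL1, CCL1, CCL4, IL15, IL16 and the list members given within 2-fold were picked after their values were seen. The single array gives no interval for biological spread and limits the precision. Alternatives changed the centring, the brightness trend, the average, the clones used, the call and the log base. Sequences and promoters were not used here. The steps were tested on simulated data. Python 3.11.15, numpy 2.4.6, pandas 2.3.3 and statsmodels 0.14.6 were used.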

Additional observations from a re-analysis of the deposited data

Results flagged for a closer look

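Many clones without a gene name gave signals of the same size as the named ones, in spots that the comparisons of genes do not use. Of 1715 unnamed clones with 3 spots on the LPS 1 h array, 100 had every spot at least 2-fold negative (5.83%), against 177 of 2892 named clones (6.12%). On the positive side 20 unnamed and 23 named clones had every spot past 2-fold. At least 8-fold negative with 3 spots of 1 sign were 16 unnamed clones, and the lowest of them averaged -7.83.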

How the results depend on the processing

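The 166 genes at least 2-fold negative and the 85 positive became 123 and 161 without centring, which moves every ratio by 0.29. Above the dimmest 25% of brightness they were 136 and 18, but that brightness was read from LPS-treated cells and is not neutral between both sides. With every spot past 2-fold they were 101 and 29, and with the values read as natural logarithms 243 and 170. Removing the brightness trend left 164 and 68, spot medians 155 and 79, clones with 3 values 154 and 68, and the brightest clone of each gene 180 and 85. The 50 negative genes past 4-fold kept their sign and stayed past 2-fold under each of the 6 settings that change a gene's value. They had been picked on these same values for size and for spots of 1 sign, so their sign could hardly change. Of the named genes past 2-fold 3 changed sign: AURKB stood at -0.085 with clones of 3 values only, and with the brightest clone DUSP1 stood at 0.16 and B3GNTL1 at 0.072. AURKB's mean of 1.99 rested on a clone with 2 spots, 0.81 and 7.33. Without centring several list medians near 0 changed sign, among them those of cytokine and chemokine receptors (0.17) and of nitric oxide, itaconate and polyamine enzymes (0.06). No paired analysis was possible because each group was 1 array, and leaving out a replicate was not possible for the same reason. Dim spots limit the precision: the median SD over spots was 0.44 in the dimmest 25% and 0.16 in the brightest.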

Other observations

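Outside the rule for naming, 81 genes were past 2-fold with 3 or more spots of 1 sign, and the following were chosen from them after their values were seen. HIVEP1, a zinc finger factor that binds NF-kB sites, had spots of -2.15, -1.92 and -1.71. TAX1BP1, an autophagy receptor and partner of A20, had -2.01, -1.57 and -1.37. PLSCR1, a phospholipid scramblase, had -1.85, -1.52 and -1.74, and SDC4, a heparan sulfate proteoglycan, -1.91, -1.52 and -1.85. AVD, which encodes the biotin-binding protein avidin, was read at -1.25, -1.15 and -1.05. These 5 genes had all their spots past 2-fold.

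On the positive side ARRDC3, an arrestin-like protein, had 1.39, 1.66 and 2.00, and PRR5, a subunit of the kinase complex mTORC2, 2.14, 1.76 and 1.25. PIK3R1, the p85 alpha subunit of phosphoinositide kinase, had 2.20, 1.08 and 1.42. PRR5 and PIK3R1 were dim, at brightness percentiles of 8.44 and 5.51, where spots spread more and ratios lean positive. ARRDC3 stood at a percentile of 35.9.

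Genes of platelet-derived growth factor were both negative. PDGFB averaged -1.34 and -1.31 on its 2 clones, while PDGFA had uneven spots of -1.08, -0.16 and -4.03.

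A few ratios rested on 1 extreme spot. One clone of LIMS1 averaged 3.39 ± 5.73 with a pair of its spots at 0.16 or below, and the other clone had spots of 0.24, 0.61 and 0.76.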
